A study of Mus musculus with 4 samples.

Results

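The genes described here encode the Hox cofactors Meis1, Meis2, Meis3, Pbx2, Pbx3 and Pbx4 and the caudal-type factors Cdx1, Cdx2 and Cdx4, and they were taken by symbol from the gene counts. They are 9 of the 24421 genes in the count data, and all 9 had a count in at least 1 library. RNA was measured by Illumina TruSeq sequencing in 4 libraries of R1, an established line of mouse embryonic stem cells (ESCs), with 2 replicates of Undiff and 2 of Day4. Undiff is R1 cells kept, according to the methods, with the cytokine LIF (leukaemia inhibitory factor), which blocks differentiation, and embryoid bodies according to the sample labels. Day4 is embryoid bodies, aggregates of differentiating ESCs, grown for 4 days without LIF and then for 4 days with retinoic acid (RA). This derivative of vitamin A was used at 2 µM by the series text and at 2 mM by the labels. Day4 therefore differs from Undiff in aggregation time, LIF withdrawal and RA together, and their shares in a difference cannot be told apart. In bulk RNA, fewer cells of a type and less RNA per cell cannot be told apart either. The comparison asks which genes change in expression when ESCs differentiate.

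Meis and Pbx proteins belong to the TALE class of homeodomain factors, named for a short loop extension in the homeodomain. They bind DNA together with Hox proteins and increase the affinity and selectivity of Hox binding, and Meis proteins also bind Pbx proteins directly. Cdx proteins are the vertebrate relatives of the fly gene caudal, and they activate posterior Hox genes in the embryo, maintain the posterior growth zone downstream of Wnt and Fgf signals, and, in the case of Cdx2, specify trophoblast and intestine. RA induces Hox genes in an order that follows their positions in the clusters, and Meis genes are known RA-responsive genes.

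The libraries held 32099074 to 47730944 counts on genes. Counts were scaled by TMM (trimmed mean of M values) to normalized counts, which are comparable between libraries but not between genes. Differences were tested with edgeR's quasi-likelihood test over all 19891 genes with a count, with Benjamini-Hochberg adjustment of the p-values. A differentially expressed gene (DEG) had to change by a log2 of 1 or more in either direction, at an adjusted p no higher than 0.05, and to average 5 normalized counts or more. With 2 libraries against 2, a two-sided exact permutation test of a single gene cannot go below p = 0.33, so none is given. A gene with 3 counts or fewer in every library of a state is called at the floor, which corresponds to 0.0629 to 0.0935 CPM (counts in every 1000000 counts on genes) per library.

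Of the 9 genes, 5 rose (Meis1, Meis2, Meis3, Pbx2 and Pbx3), 2 fell (Pbx4 and Cdx1) and 2 were not DEGs (Cdx2 and Cdx4). Among all genes tested, 42.8% were DEGs, with 22.2% higher in Day4 and 20.6% lower. The states did not overlap in normalized count for any of the 9 genes, a property shared by 85.4% of all genes tested, so that the separation by itself says little. The median log2 fold change was 2.39 over the 9 genes and -0.03 over all genes tested. The minimum mean count was reached by 8 of the 9, and Cdx4 was the exception.

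Promoter windows, from 250 bases before to 50 bases after the annotated start, were available from RefSeq on GRCm38.p6 for 7 of the 9 genes and not for Pbx3 and Cdx1. Both strands were searched for 7 motifs chosen after the expression values were known. A half-site of retinoid receptors, written AGGTCA or GGGTCA or AGTTCA or GGTTCA, was in the windows of Meis3 and Cdx2 and in 43.7% of all 32851 windows. A Cdx-type site, written TTTATG or TTTATT, was in those of Meis2 and Pbx4 and in 27.6% of all windows. The 4 matches are shown because they are the only motif matches in the 7 windows, with the motif in capitals, reading 5′ to 3′ along the gene's strand.
Meis3 (chr7:16175361-16175390, plus strand): agcgtctccgcgTGAACTtccggatgtgac
Cdx2 (chr5:147307212-147307241, minus strand): ccaacctgcggcGGGTCAtccccgcctcta
Meis2 (chr2:116064815-116064844, minus strand): cacatccaggagTTTATTggagcgcagact
Pbx4 (chr8:69832579-69832608, plus strand): tgaaaagggcgtTTTATTggctagtggact
The Meis3 match is AGTTCA read on the opposite strand. None of the 7 windows held a direct repeat of the half-sites with a spacing of 1, 2 or 5 bases, which 0.222%, 0.268% and 0.0974% of all windows held. The Pbx and Hox site TGATNNAT and the Meis site TGACAG were also in none of the 7, against 8.85% and 19.2% of all windows. The direct repeats contain the half-site, and no other motif contains another. The windows of Pbx2 and Cdx4 were the extremes in base composition, with 76% and 50.3% GC and 29 and 8 CpG dinucleotides, beside medians of 52.7% and 7 over all windows. The matches are letters in these windows, with no measurement of binding.

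Meis2, which is expressed in limb, brain and neural crest precursors and binds DNA with Pbx and Hox proteins, had the largest change of the 9 genes. Its normalized counts were 34.4 and 44.3 in Undiff and 14690.2 and 14201.3 in Day4. Both Day4 libraries were far above both Undiff libraries and close to each other. The mean rose from 39.3 ± 6.99 to 14445.8 ± 345.7 (SD, n = 2), 369.2-fold or 8.53 on the log2 scale (standard error 0.08, edgeR adjusted p = 1.9e-16). Among the 16472 genes with the minimum count, this fold change ranked 111. The gene lies at chr2:115863064-116065839 on the minus strand of GRCm38, and its exons in the GENCODE annotation overlap no other counted gene.

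Meis1, a cofactor with roles in blood, heart and limb development and a partner of Hoxa9 in leukaemia, had 72.9 and 101.7 normalized counts in the Undiff libraries and 9263.5 and 9030.4 in the Day4 libraries. The Undiff replicates of Meis1 differed by 1.39-fold, which is small beside the gap between the states. Its mean rose from 87.3 ± 20.3 to 9147.0 ± 164.8 (SD, n = 2), 105.7-fold or 6.72 on the log2 scale (standard error 0.09, edgeR adjusted p = 1.2e-15). It lies at chr11:18879817-19018985, minus strand.

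Meis3, a paralog studied mainly for hindbrain patterning, had the smallest change of the Meis genes. It had 104.2 and 92.1 normalized counts in Undiff and 1429.0 and 1458.0 in Day4, and the 2 Day4 libraries were again close together. The log2 fold change was 3.87 (standard error 0.09, edgeR adjusted p = 2.5e-13), or 14.6-fold, from 98.2 ± 8.54 to 1443.5 ± 20.5 (SD, n = 2). Meis3 lies at chr7:16175090-16186504 on the plus strand and held the half-site match shown above.

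**Figure D1:**
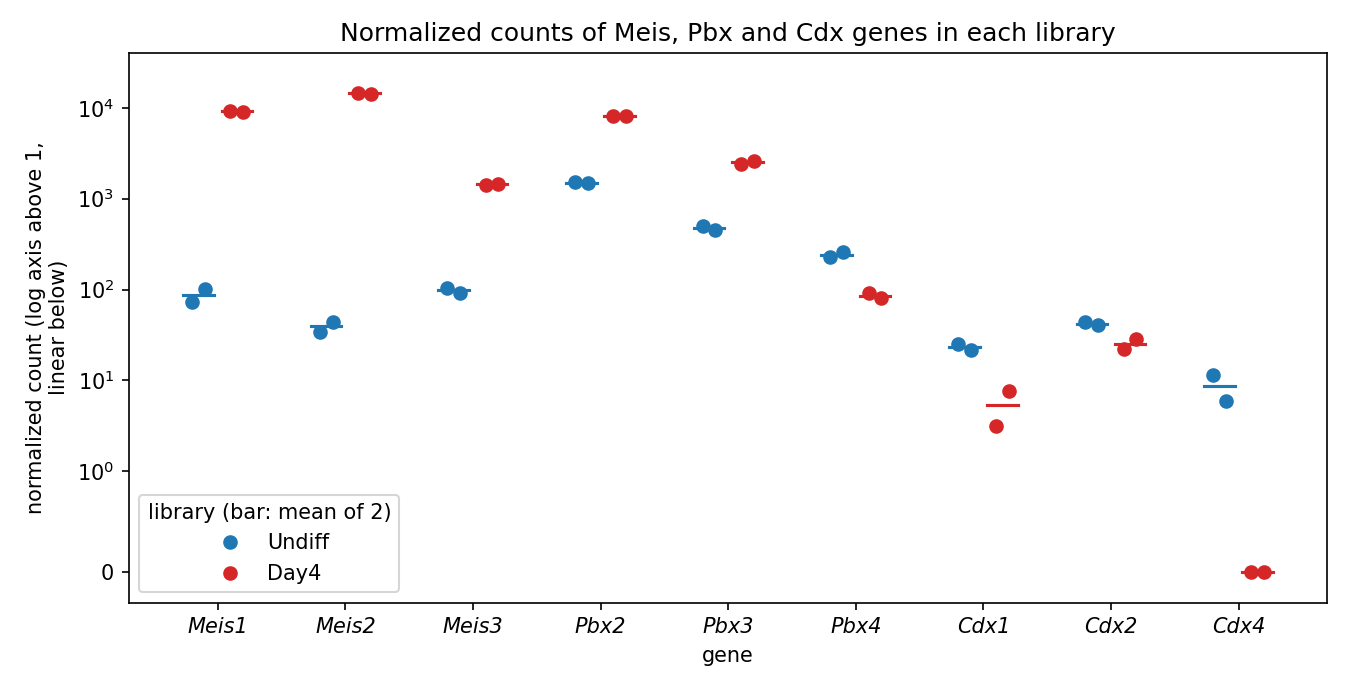
Normalized counts of the 9 genes, with a point for each of the 2 Undiff (blue) and 2 Day4 (red) libraries and a bar at each mean, on an axis that is logarithmic above 1 and linear below. The points of the 2 states are apart for every gene, with Day4 above Undiff for the Meis genes, Pbx2 and Pbx3 and below it for Pbx4 and the Cdx genes.

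The Pbx genes, whose proteins are the vertebrate relatives of fly extradenticle and direct partners of Hox proteins, did not move together. Pbx2, a widely expressed member, had 1516.2 and 1490.9 normalized counts in Undiff and 8155.2 and 8072.3 in Day4. The replicates of each state were nearly equal, and the mean rose 5.39-fold from 1503.5 ± 17.9 to 8113.7 ± 58.6 (SD, n = 2; log2 fold change 2.43, standard error 0.05, edgeR adjusted p = 3.9e-14). Its gene, at chr17:34591266-34597400 on the plus strand, shares 227 exonic bases with Gpsm3 on the same strand in the GENCODE annotation. Fragments on shared bases cannot be assigned to 1 of the 2 genes, but the counts were made with another annotation, where this overlap was not checked.

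Pbx3, which acts in hindbrain respiratory circuits, had 504.4 and 455.9 normalized counts in Undiff and 2420.3 and 2610.4 in Day4. Day4 was higher in both libraries by about the same ratio as for Pbx2. The fold change was 5.23, from 480.1 ± 34.3 to 2515.4 ± 134.4 (SD, n = 2; log2 fold change 2.39, standard error 0.07, edgeR adjusted p = 2e-12). Pbx3 lies at chr2:34171457-34373142, minus strand.

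Pbx4 moved the opposite way. This paralog, known for expression in testis, had 225.1 and 257.3 normalized counts in Undiff and 90.9 and 79.8 in Day4. The states were apart, and the mean fell 2.84-fold from 241.2 ± 22.7 to 85.4 ± 7.8 (SD, n = 2; log2 fold change -1.50, standard error 0.14, edgeR adjusted p = 3.7e-07). The gene lies at chr8:69832491-69872292 on the plus strand, and the Cdx-type match shown above lies in its window.

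The Cdx genes were low in both states and lower in Day4. Cdx2, required for trophoblast and intestine, had 42 and 34 counts in the Undiff libraries and 21 and 37 in Day4. After scaling these were 43.8 and 40.7 normalized counts against 21.9 and 28.4. The 2 states did not overlap, but the log2 fold change of -0.72 (standard error 0.27, edgeR adjusted p = 0.029) was below the minimum for a DEG, from means of 42.2 ± 2.18 and 25.2 ± 4.58 (SD, n = 2). DESeq2 gave an adjusted p of 0.18 for Cdx2, and leaving out each library in turn moved the log2 fold change between -0.97 and -0.57, with edgeR adjusted p of 0.033 to 0.13. The gene lies at chr5:147300805-147307270, minus strand.

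Cdx1, a direct target of Wnt and RA signals in the embryo, had 24 and 18 counts in Undiff and 3 and 10 in Day4. The normalized counts of 25 and 21.5 in Undiff and 3.13 and 7.68 in Day4 did not overlap, although the 2 Day4 libraries differed from each other. The mean fell 4-fold from 23.3 ± 2.46 to 5.41 ± 3.21 (SD, n = 2; log2 fold change -2.0, standard error 0.46, edgeR adjusted p = 0.0015). The size of this change depended on the Day4 library used, with a log2 fold change of -1.59 without Day4 replicate 1 and of -2.88 without Day4 replicate 2, where 3 counts remained. Cdx1 lies at chr18:61018862-61036199 on the minus strand.

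Cdx4, which is expressed in the posterior growth zone of the embryo, had 11 and 5 counts in Undiff and none in either Day4 library. Its mean normalized count of 4.36 over the 4 libraries was under the minimum of 5, so it was not a DEG (edgeR adjusted p = 0.0011). Without either Day4 library the mean passed that minimum and Cdx4 was a DEG. Set against the floor of 3 counts per library, Cdx4 was at least 3.21-fold lower in Day4. It lies at chrX:103321398-103330592 on the plus strand.

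Summed over the replicates, Cdx2 had 76 raw counts in Undiff and 58 in Day4, and the Day4 over Undiff ratio after correction for library size was 0.606 (exact 95% interval 0.423 to 0.865). The ratio of Cdx1 was 0.246 (0.121 to 0.467) from 42 and 13 counts. That of Cdx4 was 0 with an upper limit of 0.206, from 16 counts and none. These intervals cover counting error only, and those of Cdx1 and Cdx2 overlap. In Day4 the 3 Cdx genes together had fewer counts than Pbx4, the least counted of the Meis and Pbx genes.

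**Figure D2:**
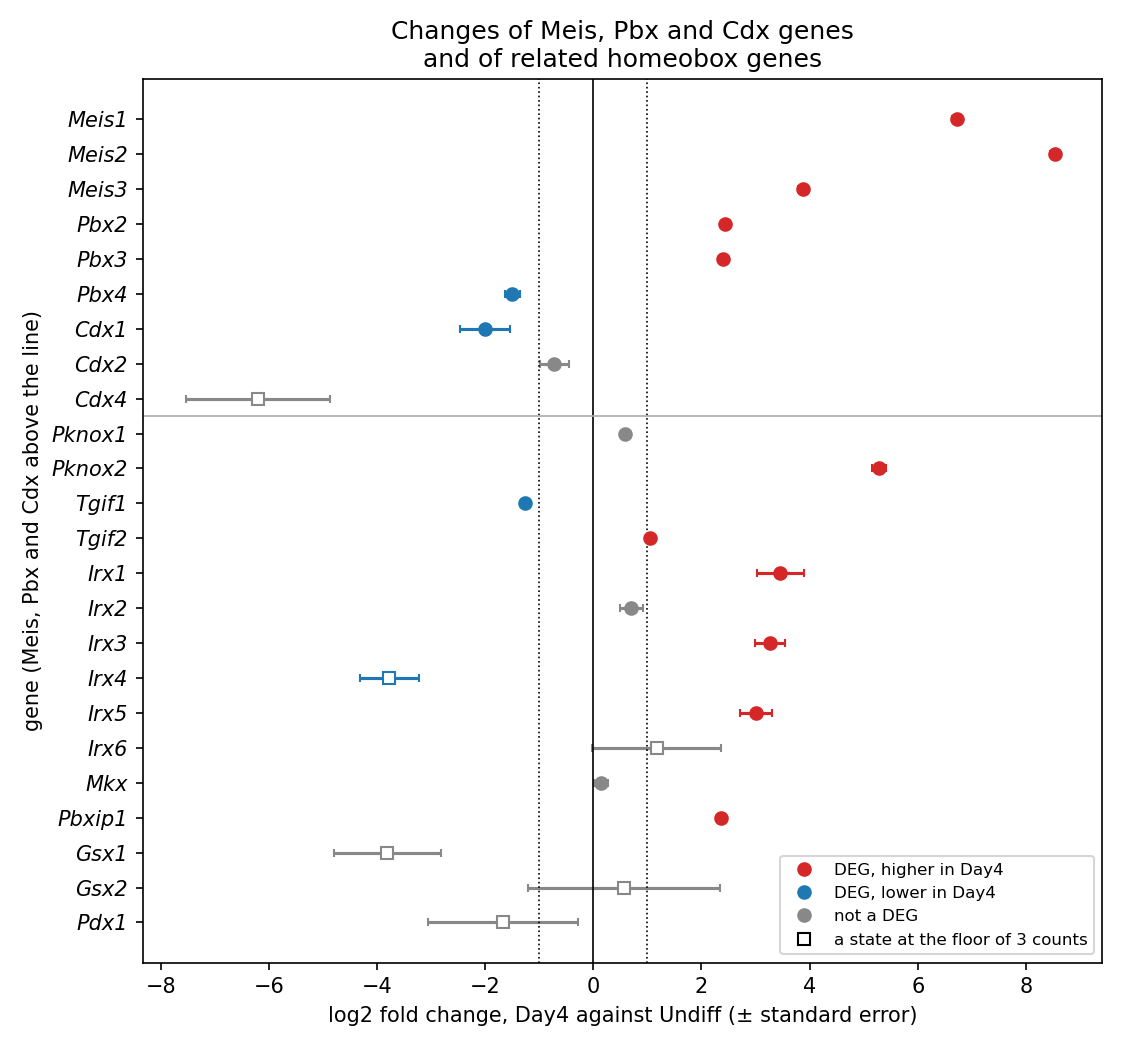
Log2 fold change of Day4 against Undiff, with its standard error, for the 9 genes and for the listed TALE and ParaHox genes, with dotted lines at the minimum change of a DEG and open squares for genes at the floor in a state. Meis2 lies at 8.53, Pknox2 at 5.29 and Pbx4 at -1.50, and the open squares, such as Cdx4, are fitted values and not bounds.

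Levels between genes were compared as CPM per kb of exon, with all annotated exons of a gene joined and the TMM scaling kept. In Undiff, Pbx2 was highest with 11.1 and 10.9, followed by Pbx4 with 2.71 and 3.1 and Pbx3 with 2.21 and 1.99. These 3 Pbx genes were thus above every Meis and Cdx gene before differentiation. Below them came Meis3, with 0.877 and 0.776, then Cdx2, Cdx1 and Meis1, and at the bottom Cdx4 with 0.156 and 0.0814 and Meis2 with 0.0763 and 0.0982. Cdx4 and Meis2 were the only neighbours in this order whose replicates overlapped. With the length of the longest transcript in place of the joined exons, Pbx3 (4.71 and 4.26) and Pbx4 (3.85 and 4.4) overlapped, as did Cdx1 and Meis1, and Meis2 (0.167 and 0.215) was above Cdx4.

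In Day4 the order per kb was Pbx2, Meis2, Meis1, Meis3, Pbx3, Pbx4, Cdx2, Cdx1 and Cdx4, and no neighbours overlapped. Meis2 moved from the bottom of these 9 genes, beside Cdx4, to the second place, with 32.6 and 31.5 CPM per kb, while Pbx4 with 1.09 and 0.962 stood in the sixth place. Pbx2 stood at 59.8 and 59.2. With longest-transcript lengths, Meis2 (71.4 and 69) overlapped Pbx2 (71 and 70.3) in Day4 and Pbx3 was above Meis3, so these places depend on the length used.

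The makeup of the summed levels changed as well. Meis3 made up 77.1% and 68.5% of the summed Meis level per kb in the Undiff libraries and 17.7% and 18.4% in Day4. Meis2 went from 6.7% and 8.68% to 47.8% and 47.2%, and Meis1 from 16.2% and 22.8% to 34.5% and 34.4%. The leading Meis gene was therefore Meis3 in Undiff and Meis2 in Day4. Of the summed level of Pbx2, Pbx3 and Pbx4, Pbx4 made up 16.9% and 19.3% in Undiff and 1.53% and 1.34% in Day4, whereas Pbx2 went from 69.4% and 68.2% to 83.7% and 82.7%. Cdx2 was the largest Cdx contributor in every library, with 49% and 54% in Undiff and 84.4% and 74.1% in Day4.

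Summed over its 3 genes, the Meis level per kb was 1.14 and 1.13 in Undiff and 68.1 and 66.7 in Day4, a 59.4-fold difference. The sum of Pbx2, Pbx3 and Pbx4 was 16 and 16 in Undiff and 71.5 and 71.6 in Day4, which is 4.46-fold. This sum was thus 14.1 and 14.2 times the Meis sum in Undiff and 1.05 and 1.07 times in Day4. With the length of the longest transcript in place of the joined exons, the Day4 ratios were 0.768 and 0.793, so which of the 2 sums was larger in Day4 depends on the length used. The Cdx level went the other way, from 1.05 and 0.891 to 0.307 and 0.453, and was 2.56-fold lower in Day4.

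**Figure D3:**
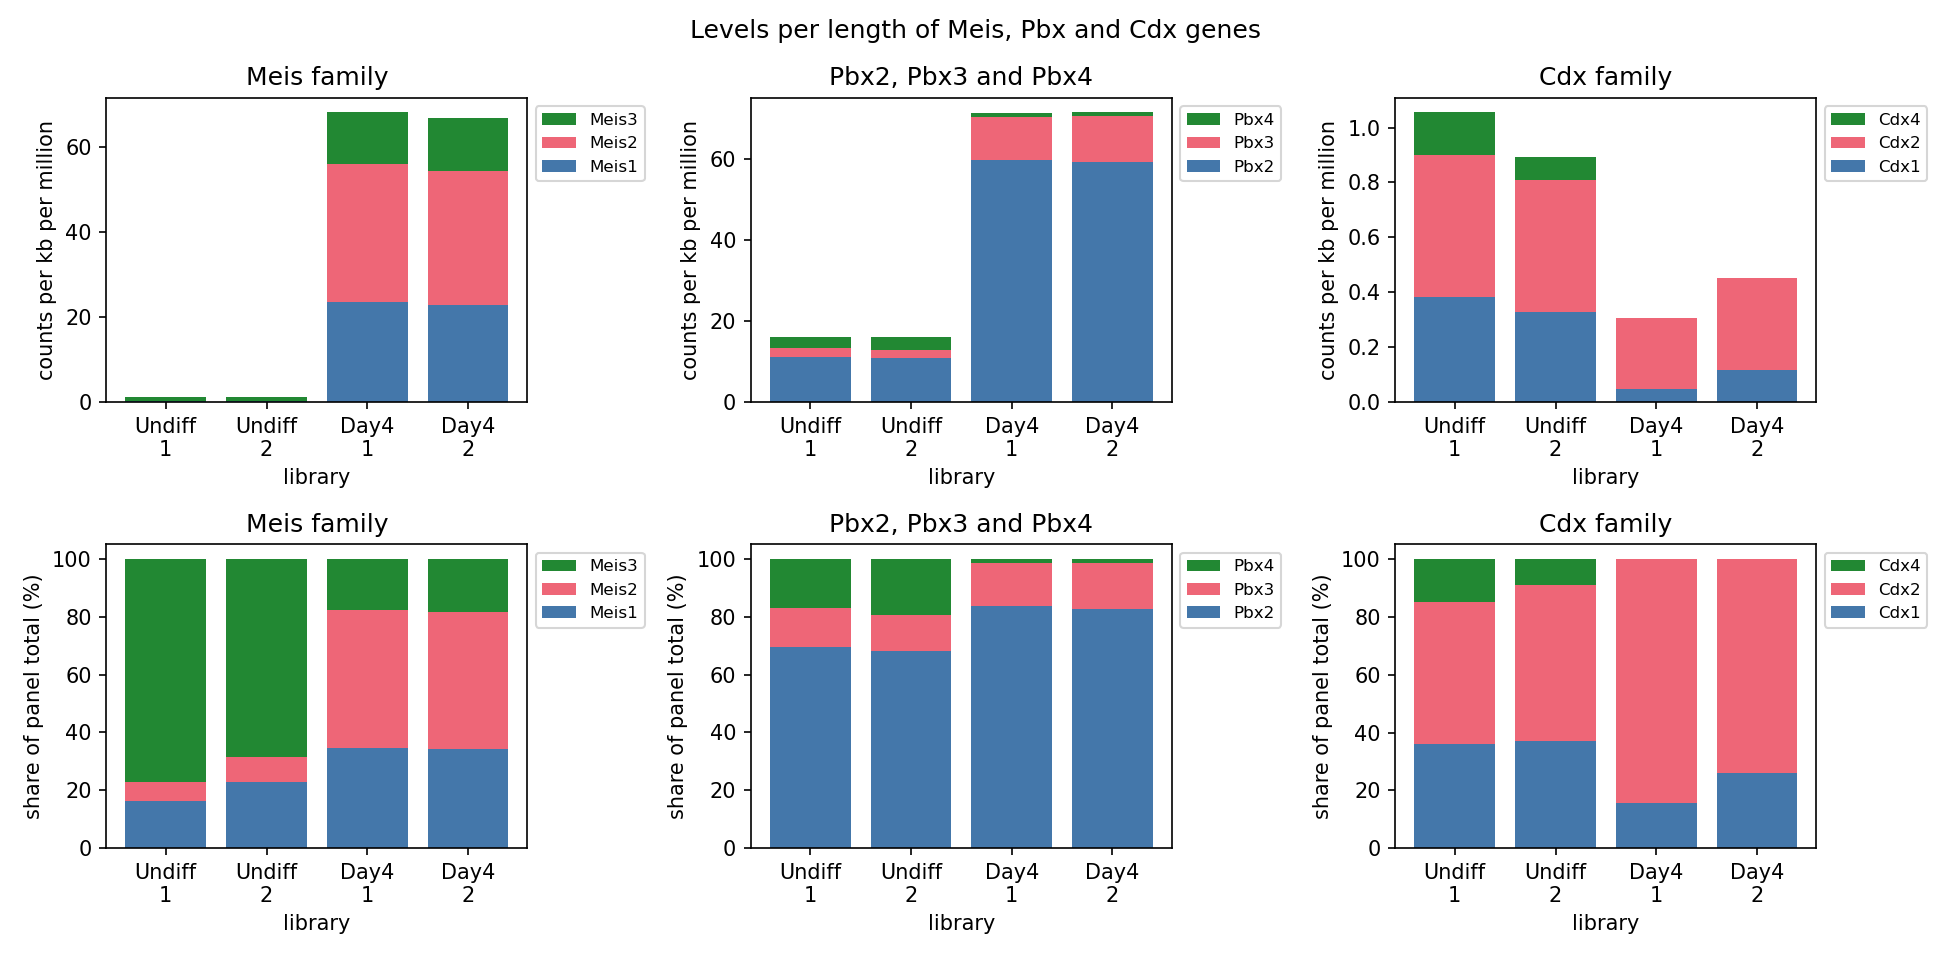
Levels in CPM per kb of joined exon for the Meis genes, for Pbx2, Pbx3 and Pbx4, and for the Cdx genes in the 4 libraries, as stacked sums (upper row, each panel on its own linear axis from 0) and as shares of the panel's sum in percent (lower row). The Meis and Pbx sums are higher in both Day4 libraries and the Cdx sums lower, and Meis3 is the largest Meis share in Undiff and Meis2 in Day4.

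A list of TALE genes outside the 9 and the Pbx-interacting protein Pbxip1, a protein that limits Pbx and Hox binding to DNA, held 12 genes. Of these, 6 rose, 2 fell and 4 were not DEGs, with a median log2 fold change of 1.10, or 0.87 with genes at the floor set to their bound, beside -0.03 over all genes. Pknox2, a relative of Meis that also binds Pbx, had 30.2 and 38.3 normalized counts in Undiff and 1414.4 and 1260.7 in Day4 (log2 fold change 5.29, standard error 0.13, edgeR adjusted p = 4.4e-13). Its paralog Pknox1 had a log2 fold change of 0.59, below the minimum for a DEG. Pbxip1 rose by 2.37 on the log2 scale (standard error 0.06, edgeR adjusted p = 5.4e-13). Tgif1, a repressor of RA and TGF-beta responses, fell by 1.26 on the log2 scale (standard error 0.05, edgeR adjusted p = 1.5e-11), from a mean of 5264.6 to 2192.8 normalized counts. Irx1, Irx3 and Irx5, factors of neural and heart patterning, rose by 3.46, 3.27 and 3.01 (standard errors 0.43, 0.28 and 0.30). Their counts in Undiff were low, with 3 and 4 for Irx1 and 8 and 10 for Irx5. Irx4, a ventricular factor, was at the floor in Day4 and at least 9.44-fold lower. Irx2, with 0.70, and Irx6, at the floor in Undiff, were not DEGs. Tgif2, with 1.04, is uncertain because its exons overlap an antisense gene on 2171 bases and no strand option is named for counting TruSeq fragments on genes. The ParaHox genes Gsx1, Gsx2 and Pdx1, the relatives of Cdx in the ancestral ParaHox cluster, were not DEGs, and Gsx2 and Pdx1 were at the floor in every library.

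The Hox genes, whose proteins the Meis and Pbx proteins accompany, were low in Undiff. All 12 genes of paralog groups 1 to 4 were DEGs and higher in Day4, with a median log2 fold change of 8.83, or 8.54 with genes at the floor set to their bound. So were all 15 of groups 5 to 9, with medians of 8.25 and 7.31. In groups 10 to 13, 7 of 12 rose, 1 (Hoxc13) fell and 4 were not DEGs. The summed level of groups 1 to 4 went from 2.55 to 2.78 CPM in Undiff to 607.4 to 614.1 CPM in Day4, that of groups 5 to 9 from 2.07 to 2.8 CPM to 889.0 to 904.1 CPM, and that of groups 10 to 13 from 2.24 to 2.67 CPM to 48.9 to 53.8 CPM. The posterior groups were thus far below the anterior and central ones in Day4. Hoxa2, a hindbrain gene, was at least 414.1-fold higher, and Hoxb5 at least 974.3-fold higher.

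Hindbrain patterning genes, among which Hox and Meis proteins act, gave 3 DEGs higher and 4 lower of 8, and 4 DEGs in all without Day4 replicate 1. Rarb, an RA receptor that RA itself induces, rose by 9.56 on the log2 scale (standard error 0.09, edgeR adjusted p = 2.3e-16). Its exons overlap Top2b, on the opposite strand, on 1793 of 5265 bases, so the strand limit given for Tgif2 holds for Rarb as well. Gbx2, a gene of the anterior hindbrain, fell by 3.73. It was already expressed in Undiff, with 651.3 and 826.8 normalized counts, against 49.1 and 59.9 in Day4. The posterior axis genes that act with Cdx, mostly Wnt and Fgf ligands and their effectors, gave 4 higher and 8 lower of 16, with a median of -1.67, or -1.12 with genes at the floor set to their bound. T, the mesoderm factor also called brachyury, was at least 37.8-fold lower, and Fgf17, an Fgf ligand of the tail bud, fell by 7.31 on the log2 scale. Among those that rose were Gdf11, a growth factor of the trunk to tail transition, with a log2 fold change of 4.09, and the Wnt ligand Wnt5a, with 3.88.

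The tissues in which Cdx2 acts outside the axis were followed by their markers. Of 14 trophoblast markers, 13 could be tested, and 2 rose, 6 fell and 5 were not DEGs. Gata3 rose by 3.55, Tfap2c fell by 4.55 and Eomes fell by 3.78, while Prl3d1, a defining hormone of giant cells, was at the floor. The list summed to 241.8 to 244.9 CPM in Undiff and to 221.5 to 223.6 CPM in Day4. Most of both sums was Krt8 and Krt18, keratins of simple epithelia that were not DEGs (0.05 and -0.01 on the log2 scale). The other 12 markers summed to 59.8 to 60.6 CPM in Undiff and 27 to 27.5 CPM in Day4. Most of that drop was Tfap2c, whose mean went from 1146.2 normalized counts in Undiff to 48.3 in Day4. Of 12 intestinal epithelium markers, 2 rose and 4 fell. They summed to only 6.95 to 9.11 CPM in Undiff and 6.61 to 8.09 CPM in Day4, with Fabp1 and Fabp2 at the floor throughout.

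Markers of other cell types moved with the states. All 8 pluripotency markers fell, from a sum of 2237.6 to 2384.8 CPM to one of 21.3 to 23.8 CPM, with Pou5f1 at -7.87 on the log2 scale. Cardiac and lateral mesoderm markers rose in 7 of 9 cases (13.1 to 13.8 CPM in Undiff, 624.6 to 626.3 CPM in Day4). Gata4 alone held 41.8% to 42.3% of that Day4 sum. The 2 that were not DEGs were Nkx2-5, with 1 and 4 counts in Day4, and Myl7, with a log2 fold change of 0.13. Visceral endoderm markers rose in 6 of 8 cases (6.19 to 7.04 CPM in Undiff, 290.8 to 305.0 CPM in Day4). Blood and endothelial markers rose in 5 of 7 (145.7 to 148.5 CPM in Undiff, 336.3 to 341.3 CPM in Day4). Gata6 alone, which is also expressed in mesoderm, held 94.5% to 94.9% of the visceral endoderm sum in Day4, and the other 7 markers went from 4.61 CPM to 15.5 to 16 CPM. Pecam1, an endothelial adhesion molecule that ESCs also express, fell by 1.19 on the log2 scale and held 91.8% to 92.7% of the blood and endothelial sum in Undiff, and the other 6 markers went from 10.8 to 11.9 CPM to 274.1 to 279.1 CPM. Neural markers split into 4 higher and 4 lower of 10, and their sum went from 325.5 to 331.3 CPM to 176.2 to 188.0 CPM, with Dcx at least 304.0-fold higher. The lower sum was that of Stmn2 and Tubb3 (-3.09 and -3.82 on the log2 scale), and the other 8 markers went from 65.2 to 67.1 CPM to 145.4 to 160.5 CPM. The genes left out of these sums were chosen after their values were seen. The part of these cell types in the changes of the Meis, Pbx and Cdx genes was not tested.

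**Figure D4:**
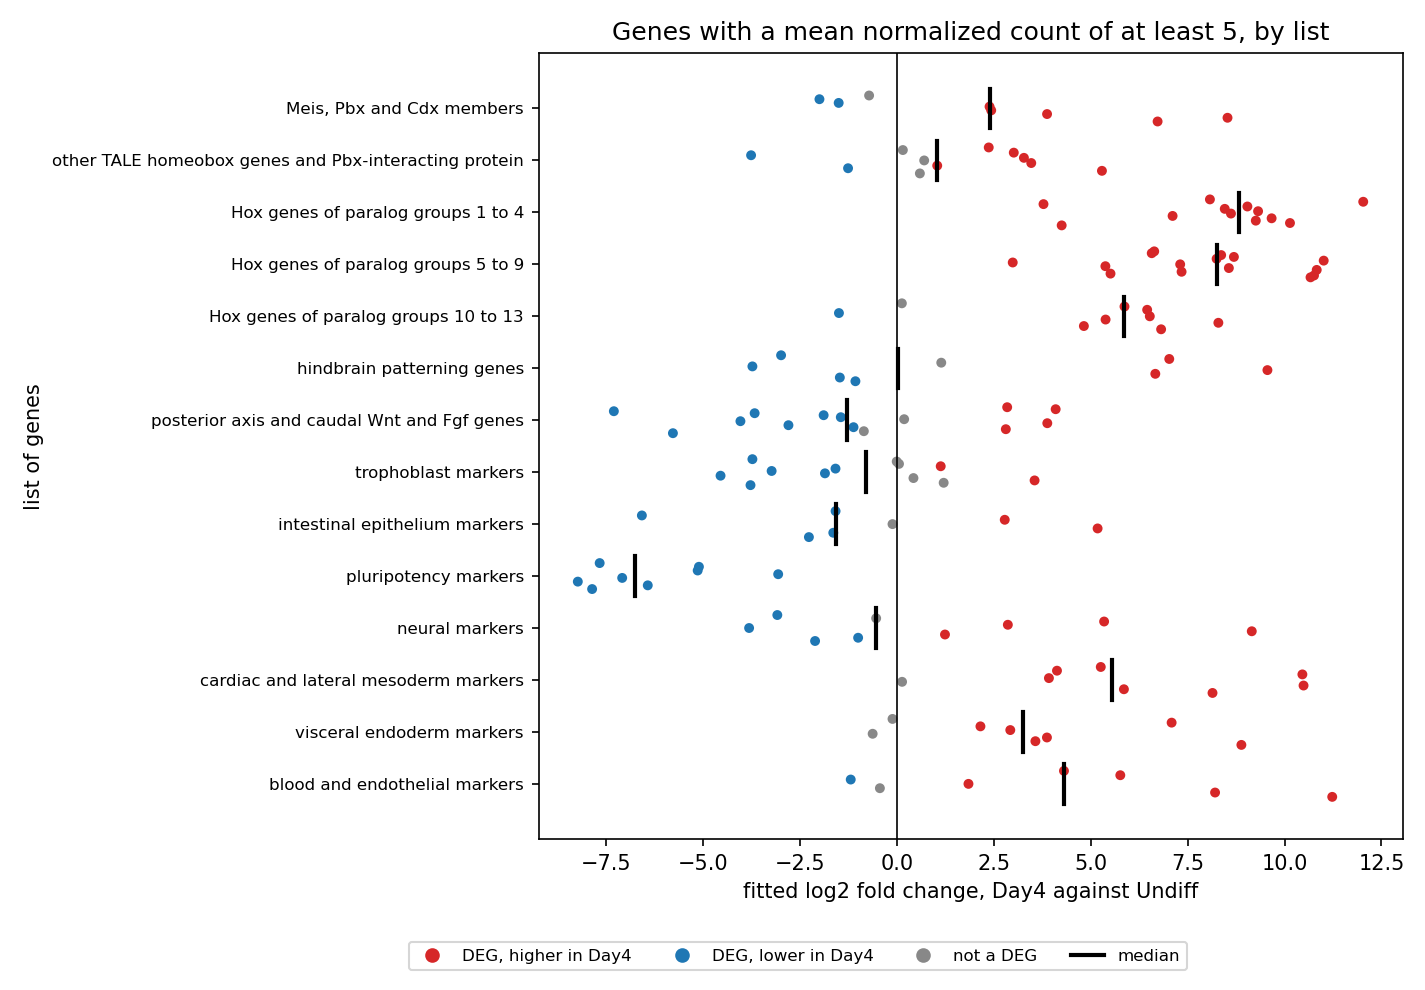
Fitted log2 fold change of each gene that averages 5 normalized counts or more, by gene list, coloured by call, with the list median as a black bar. The points of Hox groups 1 to 9 lie to the right of 0 and those of the pluripotency markers to the left, while the Meis, Pbx and Cdx genes lie on both sides.

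The genes with the pattern closest to that of Meis2 over the 4 libraries, by Euclidean distance between centred log2(normalized count + 0.5) among 13318 genes with a mean of at least 50 normalized counts, were Hoxc8 (distance 0.116), Foxd2 (0.175) and Fabp4 (0.182). Their fitted log2 fold changes were 8.69, 8.96 and 8.88. Foxd2 and Fabp4 each had 1.04 and 1.2 normalized counts in the Undiff libraries. Both were thus at the floor there, and their fitted values are not bounds. For Cdx1, the lowest of the 9 among DEGs, the closest were Atp8a2 (0.257), Sh2d4a (0.287) and E130102H24Rik (0.33). With 4 libraries in 2 states, this likeness reflects mainly the size of the change.

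**Figure D5:**
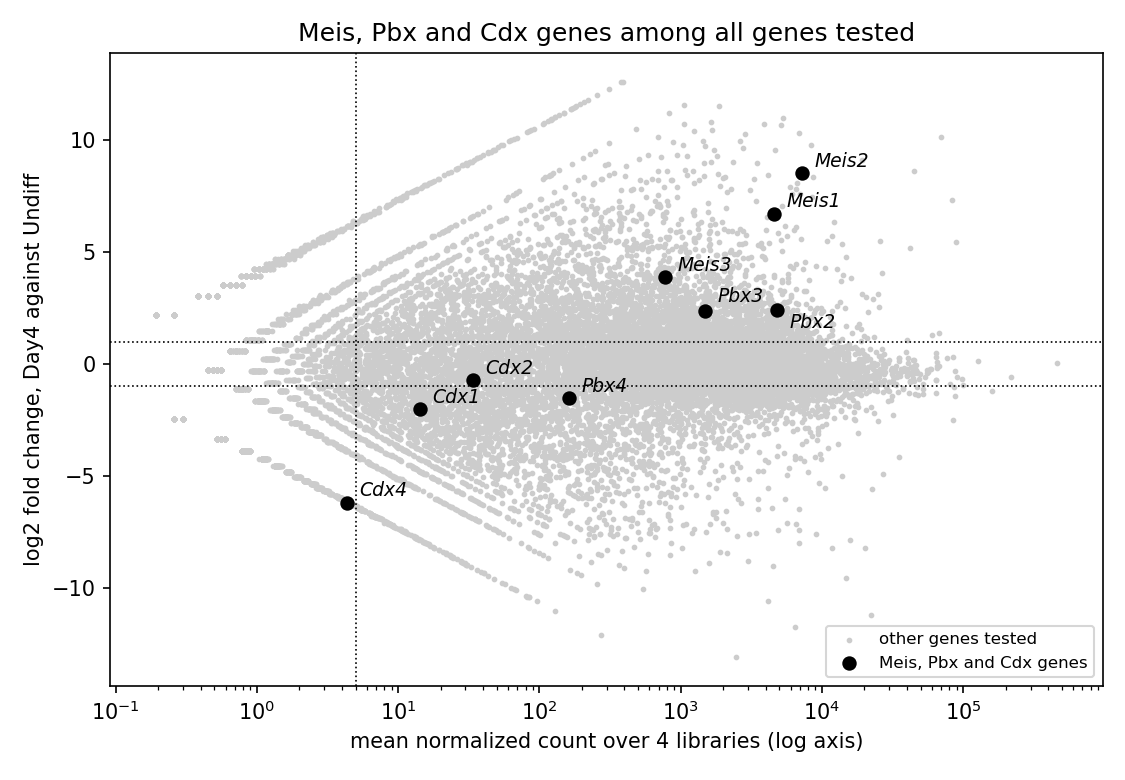
Log2 fold change of Day4 against Undiff by mean normalized count on a logarithmic axis for all genes tested, with the Meis, Pbx and Cdx genes in black and dotted lines at the minimum count and change of a DEG. Meis2, at 8.53, ranks 111 of the 16472 genes with the minimum count, and the Cdx genes lie at low counts.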

How the data were processed

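Before deposit, the authors ran cutadapt for trimming, STAR 2.4.2a for alignment to mm10, and HTSeq to count uniquely aligned fragments per gene. The deposited values are raw fragment counts per gene symbol. Fragments on no gene and on several genes (1.84% to 1.91% of a library's fragments) stayed out of the libraries. Those on no gene were 12.1% and 13.2% in the Undiff libraries and 7.50% and 7.74% in Day4. This share thus differed between the states. The methods name only the Direct RNA libraries as counted by strand and give no option for counting TruSeq fragments on genes, so overlapping genes on opposite strands are uncertain. The labels also name a ribosomal depletion kit, which the methods do not. The labels give state and replicate, and the replicates were grown and treated separately.

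Counts were tested with edgeR 4.0.16 (TMM, glmQLFit with legacy = FALSE, glmQLFTest) in R 4.3.3, with DESeq2 1.42.0 as an alternative and Benjamini-Hochberg adjustment over 19891 genes. The standard error is the size of the log2 fold change divided by the square root of F. The test was checked on simulated data with log2 changes of 2 and 3. Only genes with higher mean counts than Cdx1 and Cdx4 were changed there, so changes at such low counts were not checked. Some related genes are not reported here. Lengths, positions and exon overlaps are from GENCODE vM21 on GRCm38, matched by symbol for 95.72% of genes, and promoters from RefSeq. For counting reads on genes, the paper names an mm10 annotation from iGenomes UCSC. Counts and lengths therefore come from different annotations, and some exons in a length may not have been counted. The genes and lists were chosen with earlier results of these data known. In each list, up to 2 DEGs of highest and up to 2 of lowest fold change with a mean of at least 50 normalized counts could be named, with all listed TALE and ParaHox genes open to naming, and Hoxc13 and the markers at the floor were named after their values were seen. Alternatives were other scalings, filterByExpr, thinning to the smallest total, a replicate block, each library left out in turn, no minimum fold change, longest-transcript lengths and, chosen after seeing the data, glmQLFit with legacy = TRUE, the order of levels under longest-transcript lengths, and marker sums without their leading genes.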

Additional observations from a re-analysis of the deposited data

How the results depend on the processing

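Of 327 alternative values, 319 kept their direction and call or stayed within the limits set for a change. Another 6, all DEG totals or shares, moved. For the fold changes of the 9 genes, 2 became calls and none lost a call or reversed. List totals could fall within the limits, as from 8 to 6 neural DEGs with DESeq2, so some listed genes lost calls. When each library was left out, the log2 fold change was 8.35 to 8.71 for Meis2, 6.49 to 6.97 for Meis1 and -2.88 to -1.59 for Cdx1. For Cdx4 the fitted value was -6.64 to -5.65 against -6.20 with all libraries and -3.75 under the shrinkage of DESeq2, and without Day4 replicate 1 (-6.22) or Day4 replicate 2 (-6.06) its mean count passed the minimum, so that it was a DEG. filterByExpr removed Cdx4 and gives no value for it. The DEGs among the other ParaHox genes numbered 0 to 1 when each library was left out, with 1 without Day4 replicate 1, and those among the hindbrain genes 4 to 8, with 4 without Day4 replicate 1. Without a minimum fold change, 14309 genes were DEGs. With the length of the longest transcript, Meis2 made up 57.3% of the Meis level in Day4 in place of 47.5%, and Pbx2 60.3% in place of 68.8% of the level of Pbx2, Pbx3 and Pbx4 in Undiff and 73.9% in place of 83.2% in Day4. Other scalings moved the median log2 fold change of all genes by at most 0.066.

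The deviations of same-numbered libraries from their state means had a correlation of -0.00735. With 2 libraries a state, this value cannot tell whether same-numbered replicates of the states were paired. A fit with the replicate block gave 4414 genes higher and 4101 lower, beside 4420 and 4101 without it, and 8.53 for Meis2, and changed no call among the 9 genes. Depth limits the Cdx genes, with 0 to 42 counts a library, and the genes at the floor in a state, whose fitted fold changes are not bounds.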
